A study of Mus musculus with 9 samples.

Results

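Gene expression in adult resting melanocyte stem cells (McSC) was compared with that in newborn melanoblasts, their dividing precursors, across all genes. The comparison used 7 of the 9 RNA-seq libraries of the series, chosen by their titles: 4 of adult McSC and 3 of melanoblasts. Every library held cells sorted from dissociated dermis of wild-type female C57BL/6 mice, and the labels name no treatment or engineered allele in any group. The sort took cells with KIT, a receptor of the melanocyte lineage, on their surface and without CD45, an immune cell protein. Melanoblasts came from pups at postnatal day 0.5, when these cells lie in growing hair follicles. Adult McSC came from body skin of mice aged 8 to 10 weeks whose hair follicles were at rest (telogen), a state in which they keep stem cells and lack mature pigment cells. Each library pooled several animals, and a p-value here reflects the scatter among pools. The other 2 libraries held aged McSC from mice of 24 months, obtained from another colony. They entered the fit only through the estimate of spread, and their values stand beside some results as a description.

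Melanoblasts arise from the neural crest, move through dermis and epidermis, divide, and settle in hair follicles. A part of them stays behind in the bulge and hair germ as stem cells, which rest through telogen and return to division when a new hair grows. Resting stem cells of several adult tissues are known to make little protein and to depend on signals from the cells around them. Cell cycle, pigment, MHC and interferon genes are passed over here, and 42 lists of other programs are described.

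The melanoblast libraries held between 23688288 and 33710117 counts and the adult libraries between 19956424 and 21572026. Of 31961 genes tested, 10676 (33.4%) passed an adjusted p of 0.05, with 4836 (15.1%) higher and 5840 (18.3%) lower in adult cells. Values are CPM (counts per mega-count of a library), scaled by TMM, a factor per library taken from the bulk of genes. Those factors ran from 0.56 to 0.842 in melanoblast and from 1.09 to 1.21 in adult libraries, and the calls lean on them. Among the 8550 genes that averaged at least 10 CPM over the 7 libraries, 797 (9.32%) rose and 4870 (57%) fell, and the median log2 fold change was -0.74. With factors taken from 4043 abundant genes alone, 2442 (28.6%) of the same genes were higher, 1630 (19.1%) were lower and the median was 0.08. Library totals without any factor, an alternative added after the data were seen, gave 2332 higher, 1331 lower and a median of 0.11. All 797 rises and 1630 of the falls were called under both TMM and abundant-gene factors. A gene list is therefore described below by its median log2 fold change minus that of all genes of at least 10 CPM, a difference that changes little with the library factors. Each list's counts are given under TMM and, as "under both scalings", for members also called in the same direction with abundant-gene factors. Those factors moved the median of all genes tested from 0.39 to 1.18, and all 4836 rises kept their call. A rise under both scalings is therefore no further check, and only the falls are narrowed. List counts run over all members tested, and many lists hold members under 10 CPM. Of all genes tested 15.1% rose and 18.3% fell. Rises made up 19.3% of genes of 1 to 3 CPM and 21% of those of 3 to 10 CPM. Among genes of at least 10 CPM the shares were 9.32% for rises, 57% for falls and 19.1% for falls under both scalings.

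**Figure D1:**
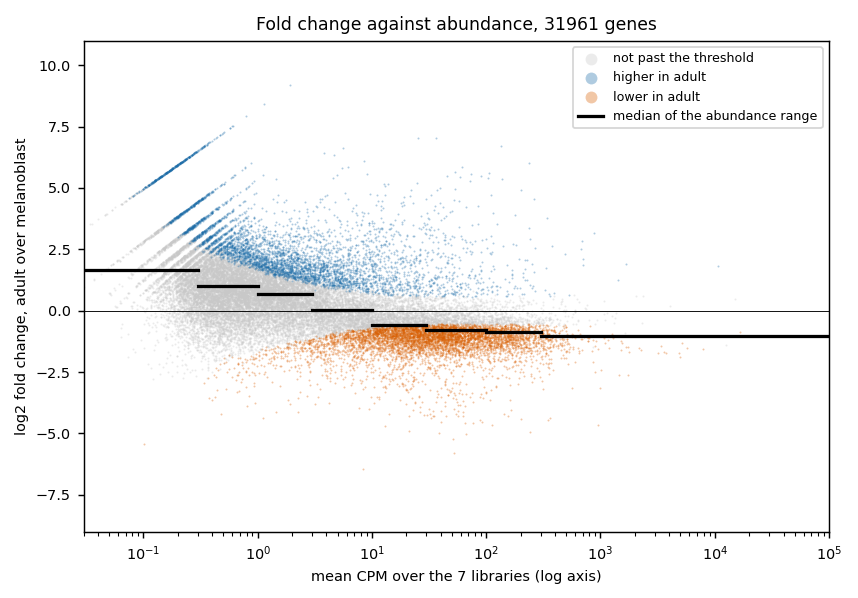
Log2 fold change, adult McSC over melanoblast, against mean CPM over the 7 libraries (log axis) for every gene tested, coloured by call, with black bars at the median of each abundance range. The median ran from 1.64 among genes under 0.3 CPM, through 0.01 between 3 and 10 CPM, to -1.03 among genes of 300 CPM and more.

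Rare transcripts leaned to adult libraries. The 1702 olfactory and vomeronasal receptor genes, which skin cells are not known to use, took 276, 166 and 375 CPM of the unscaled totals in melanoblasts and 1464, 763, 1207 and 1230 CPM in adult libraries. The groups did not overlap, and the exact two-sided permutation p of 0.0571 is the smallest that 3 against 4 libraries can give. Of 1048 such genes tested, 288 rose and 1 fell, and 95% of them averaged at most 2.24 CPM in adult cells. The highest mean of any receptor gene was 11.8 CPM in adult cells and 17.8 CPM in either group. Among the rises named below, Lin28b and Ptprc averaged less than the first of these in adult cells, and Piezo2, Adra1a, Ntn4, Slc2a3, S100b, Tubb2a, Ephb6 and Adcy1 less than the second. The part of this background in their values was not tested.

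The labels were checked against defining markers. 2870, 3081 and 2248 CPM in melanoblasts and 599, 1610, 711 and 1021 CPM in adult cells were counted for Kit itself (log2 fold change -1.47, SE 0.28, adjusted p = 2.38e-04), so the sorted receptor was abundant in all 7 libraries and lower in adult cells. Ptprc, the gene for CD45, was low in both groups and rose, from 0.678 to 3.17 CPM in melanoblasts to 4.15 to 7.44 CPM in adult cells (log2 fold change 1.77, SE 0.45, adjusted p = 0.00385). The summed level of 10 melanocyte lineage markers was 23027, 24967 and 13768 CPM in melanoblasts and 4538, 10902, 5977 and 7553 CPM in adult libraries. In a bulk sample, fewer cells of a type and less RNA per cell cannot be told apart. Markers of other skin cells moved with the comparison. The 14 keratinocyte and hair follicle markers other than Cdh1 summed to 478, 412 and 216 CPM in melanoblasts and to 1732, 1394, 2896 and 2313 CPM in adult libraries, with none of them at 0. Among them Krt5, a keratin of basal keratinocytes, went from 22.3 to 52.3 CPM to 227 to 576 CPM. The 13 Schwann cell markers summed to 749, 760 and 524 CPM against 1572, 1031, 1341 and 1239 CPM. Of the 13, 7 rose and 2 fell, with Mbp, a gene of myelin, higher (3.41 on the log2 scale) and Fabp7 lower (-1.81). Scn7a and L1cam, described below among the rises, are members of this list and part of its sum. The 11 endothelial markers summed to 63.7 to 108 CPM against 96.6 to 338 CPM, with the highest value in adult replicate 3. The 10 fibroblast markers went the other way, from 588 to 2139 CPM in melanoblasts to 482 to 951 CPM. The 8 pericyte and smooth muscle markers were lower without overlap, going from 483, 492 and 361 CPM in melanoblasts to 162, 165, 168 and 139 CPM in adult libraries, and without Mcam, their most abundant member in melanoblasts, from 151 to 277 CPM to 118 to 131 CPM. Macrophage, mast cell and T cell lists summed to at most 70.6 CPM in any of the 7 libraries. The most abundant single markers were Col3a1 for fibroblasts, at 196 to 946 CPM in melanoblasts and 114 to 249 CPM in adult cells, Pmp22 for Schwann cells, at 249 to 334 and 298 to 551 CPM, Pecam1 for endothelium, at 13.2 to 31 and 22.4 to 79.3 CPM, Cpa3 for mast cells, at 10.8 to 16.5 and 0.833 to 3.16 CPM, and Cd68 for macrophages, at 14.3 to 26.5 and 17.2 to 30.8 CPM. The part of these cells in the changes described below was not tested.

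**Figure D2:**
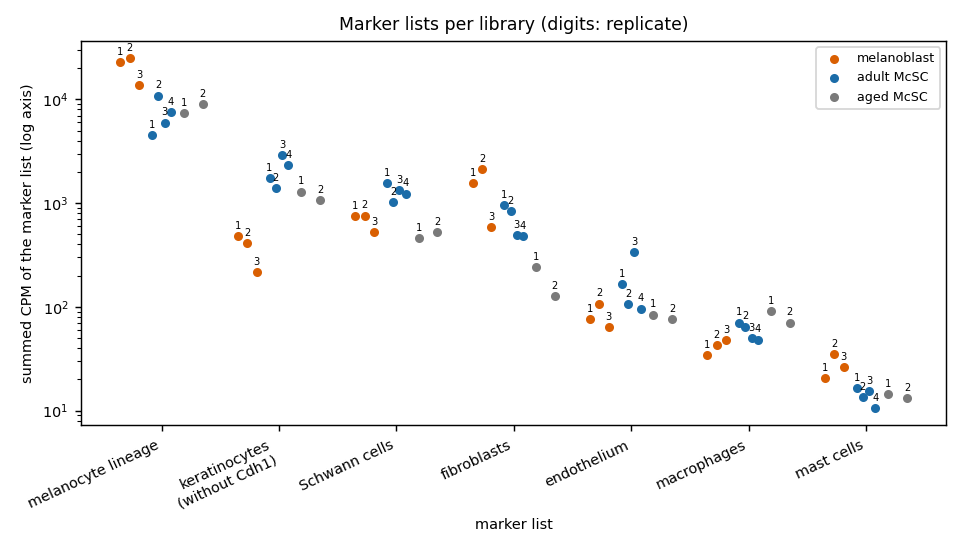
Summed CPM (log axis) of 7 marker lists in each library, with digits for the replicate number. Lineage markers were lower in the 4 adult than in the 3 melanoblast libraries, while keratinocyte markers without Cdh1 and Schwann cell markers were higher in all 4 adult libraries, and no adult library was the highest for all of them.

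The marker sums differed among the 4 adult libraries. Adult replicate 2 had the highest lineage sum, replicate 3 the highest keratinocyte and endothelial sums, and replicate 1 the highest Schwann cell sum and the lowest lineage sum. Of the 797 rises among genes of at least 10 CPM, 260 (32.6%) were highest in replicate 2, 270 (33.9%) in replicate 3, 177 (22.2%) in replicate 1 and 90 (11.3%) in replicate 4. The library with the highest adult value is given beside some genes below. Of the other rises named below, Fos, Atf3, Hspa1a, Hspa1b, Pdk4, Adh7, Hbegf, Sgk1, Piezo2, Ntn4, Nfil3, Slc2a3, C3, Serping1, Cd59a and Tubb2a were highest in replicate 1. Akr1c18, Steap4, Zfp36, Cldn1, Slc2a1, Adra1a, Adcy1, Epha4 and Ephx2 were highest in replicate 3. The remaining rises were highest in replicate 2 or 4.

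Across lists, the machinery that makes RNA and protein lay below the median of expressed genes in every adult library, and surface receptors, channels, secreted ligands and hormone-responsive genes lay above it. The median log2 fold change itself fell with abundance, from -0.58 among genes of 10 to 30 CPM to -1.03 among those of 300 CPM and more. Subtracting a common median does not remove that trend, and its part in this contrast was not tested. High mobility group proteins were the lowest list, at -1.52 relative to all genes of at least 10 CPM, and complement genes (2.49) and glucocorticoid-responsive genes (2.35) were the highest. The last 2 values rest on 6 of 24 complement genes and 13 of 19 glucocorticoid-responsive genes. Some of them, such as C3 and Serping1, reached a mean of 10 CPM only through their adult values. Over all members tested the medians were 0.89 and 1.27, against 0.39 for all genes tested.

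**Figure D3:**
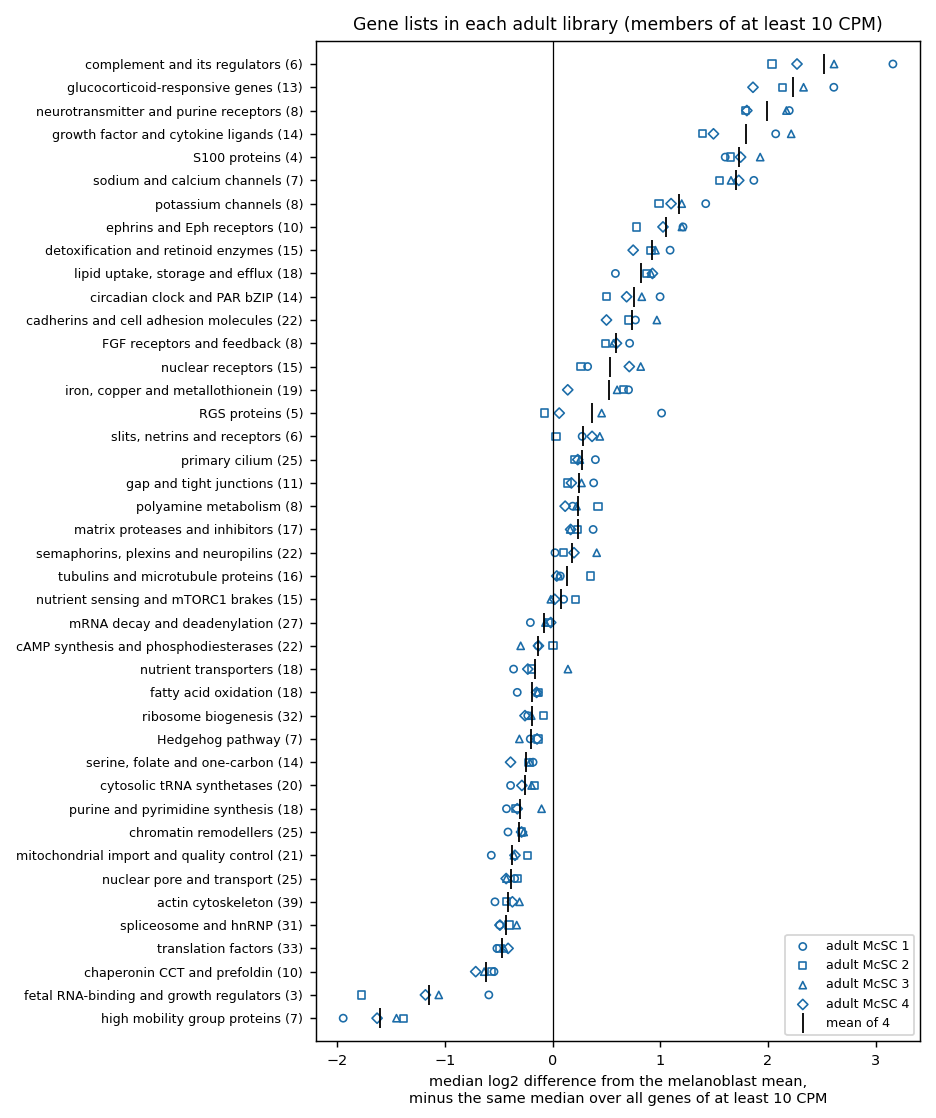
Median log2 difference of each adult library from the melanoblast mean over a list's members of at least 10 CPM (their number in brackets), minus the same median over all genes of at least 10 CPM, with a bar at the mean of the 4 libraries. Lists at the top were higher and lists at the bottom lower than other expressed genes; for most lists the 4 libraries lay on the same side of 0, with high mobility group proteins between -1.95 and -1.39 and glucocorticoid-responsive genes between 1.86 and 2.61.

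Several importers of amino acids were much lower in adult cells, though nutrient transporters as a list lay close to other expressed genes, at a relative median of -0.12. Cells import large neutral amino acids through a pair of proteins, the transporter Slc7a5 and its partner chain Slc3a2. Slc7a5 (chr8:121881150-121907694, build mm10) had 1424, 1258 and 749.7 CPM in melanoblasts and 78.8, 214, 93.6 and 123 CPM in adult cells (log2 fold change -3.17, SE 0.31, adjusted p = 4.03e-08). Every adult library lay far below every melanoblast library. Slc7a8, another transporter that pairs with Slc3a2, had 417, 349 and 253 CPM in melanoblasts and 10.7, 28.2, 15.1 and 16.2 CPM in adult cells (log2 fold change -4.28, SE 0.30, adjusted p = 9.89e-11). Slc38a1, which imports glutamine and alanine, had 571, 574 and 365 CPM in melanoblasts and 46, 102, 56.4 and 62.8 CPM in adult cells (log2 fold change -2.91, SE 0.26, adjusted p = 7.20e-09). The partner Slc3a2 fell less, from 401 to 653 CPM to 144 to 254 CPM (-1.53 on the log2 scale), as did Slc7a1, an importer of arginine and lysine (-1.39). Smaller carriers of neutral amino acids fell as well, with Slc43a1 at -1.93 and Slc6a15 at -1.82 on the log2 scale. Slc7a11, the cystine importer, fell from 8.48 to 25.4 CPM to 1.92 to 4.58 CPM (-2.21). Not all carriers followed. Slc38a2, a glutamine carrier of the same family as Slc38a1, had 1064, 979.8 and 692 CPM in melanoblasts and 1334, 1633, 888 and 890.5 CPM in adult cells and did not pass the threshold (0.38, adjusted p = 0.251). Of 28 nutrient transporters tested, 11 fell and 3 rose, and 9 of the falls were called under both scalings. The rises took in the glucose carriers Slc2a1, with 21.6, 21.5 and 14.2 CPM in melanoblasts and 44.6, 52.6, 52.7 and 41.6 CPM in adult cells (1.32), and Slc2a3, with 0.73 to 4.97 CPM against 9.2 to 19.2 CPM (2.10). Adult replicate 2 was the highest adult library for Slc7a5, Slc7a8, Slc38a1 and Slc3a2, and the aged libraries lay at 149.5 and 100.1 CPM for Slc7a5.

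The enzymes that load amino acids onto tRNA lay a little below other expressed genes as a list. Of 20 cytosolic tRNA synthetases, 18 fell and none rose under TMM, against 57% of all genes of at least 10 CPM that fell. Under both scalings 4 of the 20 remained, close to the 19.1% of all genes of at least 10 CPM. The list's median was -0.28 relative to those genes, with the 4 adult libraries between -0.39 and -0.17. Iars, for isoleucine, had 246, 279.9 and 199 CPM in melanoblasts and 61.8, 98.9, 75 and 92.3 CPM in adult cells (log2 fold change -1.56, SE 0.22, adjusted p = 8.20e-06), and the 2 groups did not overlap. Gars (glycine, -1.47) and Kars (lysine, -1.58) also fell under both scalings. Aars (-0.66), Tars (-0.96) and Yars (-0.62) fell under TMM but not with abundant-gene factors, which put Aars at 0.14 and Yars at 0.19, and leaving out adult replicate 1 ended the call of Aars and Yars.

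Many synthetase and amino acid transporter genes are controlled by ATF4, a factor made during amino acid shortage that binds the amino acid response element. The 8 letters TGATGCAA, or TTGCATCA on the other strand, were searched in RefSeq promoters of 300 bases. A gene counted if any of its promoters held them. They stood in 4 of 13 synthetase genes with a promoter (30.8%), 3 of 16 nutrient transporter genes (18.8%) and none of 17 serine and folate genes. Among genes of at least 10 CPM the share was 0.57%. Counted per single promoter, it was 0.895% of all 32851. The 30 bases around the site in Iars, Tars, Yars, Slc7a11 and Slc1a4 are printed, from the RefSeq promoter table for GRCm38.p6, 5′ to 3′ on the gene's strand with the element in capitals, because genes with the same letters differed in how they changed.
Iars (chr13:49682126-49682155, + strand): cactgtcagtaTTGCATCAcctccagacgc
Tars (chr15:11399655-11399684, - strand): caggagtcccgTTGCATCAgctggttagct
Yars (chr4:129189895-129189924, + strand): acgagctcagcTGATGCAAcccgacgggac
Slc7a11 (chr3:50443652-50443681, - strand): gcTGATGCAAacctggagaatTTGCATCAt
Slc1a4 (chr11:20332699-20332728, - strand): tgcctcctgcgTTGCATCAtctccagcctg
Slc7a11 holds the letters on both strands within these bases. The printed genes ran from -2.21 for Slc7a11 and -1.56 for Iars, through -0.96 for Tars and -0.62 for Yars, to 0.39 for Slc1a4 (adjusted p = 0.372). Slc1a4, a carrier of serine and alanine, had 6.22, 8.55 and 5.17 CPM in melanoblasts and 5.1, 14.8, 6.4 and 8.62 CPM in adult cells. Aars (-0.66) and Slc7a7, whose value is not given here, also held the element. A match of letters is a description and shows neither binding nor a cause.

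Translation factors were lower as a list. Of 33 translation factors 29 fell and none rose, 16 of them under both scalings, and the list's median was -0.50 relative to all genes of at least 10 CPM. Eif3b, a subunit of the initiation complex that joins mRNA to the ribosome, had 128, 158 and 90.2 CPM in melanoblasts and 23.3, 52.4, 38.3 and 34 CPM in adult cells (log2 fold change -1.76, SE 0.25, adjusted p = 8.68e-06). Eif3c (-1.50) and Eif2s1, a subunit of the factor that brings the initiator tRNA (-1.55), fell too. Ribosome assembly genes stayed close to other expressed genes, at a median of -0.11 relative to all genes of at least 10 CPM. Of 36 tested 23 fell, 6 of them under both scalings. Of the 32 members of at least 10 CPM 22 fell and none rose, against 57% of all such genes that fell. Under both scalings 19.1% of all such genes fell. Npm1, an abundant nucleolar protein, was among the largest losses in CPM, from 2430 to 3831 CPM to 467 to 582 CPM (-2.63). Eef1a1, which carries loaded tRNA to the ribosome, went from 3566 to 6291 CPM to 1373 to 2492 CPM (-1.45). Protein folding followed: 10 of 14 subunits of the chaperonin CCT and its helper prefoldin fell, 6 under both scalings, at a relative median of -0.64. Cct5 had 248, 274 and 159 CPM in melanoblasts and 62.5, 91.3, 67.1 and 72.5 CPM in adult cells (log2 fold change -1.63, SE 0.23, adjusted p = 6.27e-06). CCT folds actin and tubulin, whose own genes are described below.

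RNA processing and export moved in the same direction. Of 32 spliceosome and hnRNP genes 23 fell and none rose, 13 under both scalings, at a relative median of -0.39. Snrpd3, a core protein of the splicing particles, had 43.2, 38.9 and 31.1 CPM in melanoblasts and 7.99, 11.6, 10.5 and 11.3 CPM in adult cells (-1.87). Hnrnpa1, a regulator of exon choice, went from 333 to 532 CPM to 128 to 178 CPM (-1.63). Of 27 nuclear pore and transport genes 21 fell, 8 under both scalings, at -0.41. Kpna2, an import carrier, had 126, 141 and 106 CPM in melanoblasts and 36.2, 44.2, 26.7 and 27.7 CPM in adult cells (-1.88), and Nup155, a pore subunit, fell by a similar amount (-1.71). Genes of mRNA decay did not stand apart from other expressed genes, with a relative median of -0.03. Within that list Cnot6, a deadenylase (-1.62), and Dcp2, the decapping enzyme (-1.60), fell, while Zfp36, which marks short-lived mRNAs for decay, rose from 59 to 116 CPM to 468 to 678 CPM (2.64) and Tob1, an anti-proliferative partner of the deadenylases, rose from 62.5 to 90.1 CPM to 144 to 256 CPM (1.31).

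Genes that make the building blocks of DNA and RNA were lower in part. Of 23 purine and pyrimidine synthesis genes 15 fell and none rose, 7 under both scalings, at a relative median of -0.26. Paics, a purine enzyme, had 771, 792 and 443 CPM in melanoblasts and 229, 272, 246 and 237 CPM in adult cells (-1.44). Cmpk1, a nucleotide kinase, fell by 1.87 on the log2 scale. Of 21 serine, folate and one-carbon genes 9 fell, 4 under both scalings, and the list's relative median was -0.23. All 9 falls were among its 14 members of at least 10 CPM. Of all genes of at least 10 CPM 57% fell, and 19.1% fell under both scalings. Mthfd1l, which makes formate in mitochondria, had 86.3, 88.2 and 66.1 CPM in melanoblasts and 14.3, 21.7, 11.7 and 15.2 CPM in adult cells (log2 fold change -2.35, SE 0.24, adjusted p = 4.62e-08), the smallest p of that list. Psat1 of serine synthesis went from 140.2 to 237 CPM to 62.3 to 76.9 CPM (-1.48). Mitochondrial import and quality control genes had 23 falls among 30 tested and no rise, 8 under both scalings, at -0.36, with the chaperonin Hspd1 at -1.63. In the polyamine list, Sms, which makes spermine, fell (-1.56) and Azin1, which protects ornithine decarboxylase from its antizyme, rose from 67.2 to 85.6 CPM to 114 to 194 CPM (1.01).

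Chromatin architecture proteins showed the lowest list median of all. High mobility group proteins bend or loosen DNA and are abundant in embryonic and dividing cells. Of 9 tested, 8 fell, and 7 fell under both scalings. Hmgb2 (chr8:57511907-57515999) had 303, 263 and 176 CPM in melanoblasts and 31.9, 26.9, 29.1 and 25.2 CPM in adult cells (log2 fold change -3.13, SE 0.24, adjusted p = 6.39e-10). The adult libraries lay close together and far below the melanoblast range. Hmgn2 had 209, 253 and 117 CPM in melanoblasts and 19.5, 24.9, 26.3 and 19.4 CPM in adult cells (log2 fold change -3.10, SE 0.25, adjusted p = 1.05e-09). Hmgb3 (-3.47), Hmga1 (-2.26) and the fetal form Hmga2, with 11.4 to 21.2 CPM against 1.84 to 2.53 CPM (-2.83), fell too. Of 26 chromatin remodelling genes 18 fell and none rose, 8 under both scalings, at a relative median of -0.35. The SWI/SNF subunits Smarcc1, with 507, 497 and 333 CPM in melanoblasts and 70.1, 134, 98.3 and 115 CPM in adult cells (-2.10), and Smarcd1 (-2.19) were the lowest p of that list. Fetal RNA-binding regulators were divided. Igf2bp3, which binds Igf2 and Hmga2 mRNA, had 65.2, 52.4 and 78.3 CPM in melanoblasts and 18.7, 13.4, 14 and 17.5 CPM in adult cells (log2 fold change -2.04, SE 0.23, adjusted p = 2.04e-07), and Igf2bp2 fell by 1.98 on the log2 scale. Lin28b, another gene of this set, was low in both groups and went from 1.15 to 1.56 CPM to 2.48 to 5.04 CPM (1.53, adjusted p = 0.00794), which lies within the range of the receptor background. Igf2 itself, the fetal growth factor, had 78.2, 91.1 and 40.4 CPM in melanoblasts and 4.71, 2.01, 4.66 and 3.87 CPM in adult cells (log2 fold change -4.19, SE 0.33, adjusted p = 7.80e-10).

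Actin genes were lower as a list. Of 40 actin cytoskeleton genes 33 fell and none rose, 17 under both scalings, at a relative median of -0.40. Cfl1, which severs actin filaments, had 889, 852 and 604 CPM in melanoblasts and 144, 299.7, 180.4 and 198 CPM in adult cells (-1.93). Diaph3, a formin (-2.55), and Wasf1, which starts branched filaments (-2.42), fell further. Of 22 tubulin and microtubule genes 8 fell and 5 rose. Tubb5 had 802, 754 and 473 CPM in melanoblasts and 69, 158, 114 and 116 CPM in adult cells (-2.56), Dpysl3, a tubulin partner of growth cones, had 609, 550.0 and 375 CPM in melanoblasts and 49, 100.2, 68 and 87.4 CPM in adult cells (log2 fold change -2.75, SE 0.25, adjusted p = 9.99e-09), and Stmn1 fell by 2.14 on the log2 scale. Map7, which stabilises microtubules, rose from 5.42 to 8.96 CPM to 21.4 to 26.4 CPM (1.70), and Tubb2a rose from 5.72 to 7.14 CPM to 9.87 to 23.6 CPM (1.32). With length and GC offsets Tubb2a was at 0.81 and did not pass the threshold.

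Adhesion molecules changed in both directions. Of 31 cadherins and adhesion molecules 13 rose and 8 fell, against 15.1% and 18.3% of all genes tested. All 13 rises and 5 falls were called under both scalings. Of the 22 members of at least 10 CPM 7 rose and 8 fell. Cdh1 (E-cadherin), which ties melanocytes to keratinocytes, had 2102, 2075 and 1479 CPM in melanoblasts and 239.8, 469, 332 and 374 CPM in adult cells (log2 fold change -2.42, SE 0.25, adjusted p = 5.81e-08). It fell in all adult libraries although other keratinocyte markers rose in them. Mcam, an adhesion molecule also known as CD146 and a marker of pericytes, had 206, 236 and 209.9 CPM in melanoblasts and 43.5, 34.5, 37.7 and 21.1 CPM in adult cells (log2 fold change -2.67, SE 0.24, adjusted p = 5.37e-09), and Cdh11 fell by 1.99 on the log2 scale. The rises were led by neural members of the immunoglobulin family. Chl1 (chr6:103510586-103750211) had 4.23, 3.28 and 2.26 CPM in melanoblasts and 180.4, 93.7, 143 and 82.9 CPM in adult cells (log2 fold change 5.27, SE 0.34, adjusted p = 2.99e-11). Cadm2 had 1.99, 2.14 and 2.16 CPM in melanoblasts and 116, 48.3, 59.5 and 45.4 CPM in adult cells (32.0-fold by the fit, adjusted p = 1.21e-10), and L1cam had 22.5, 25.2 and 19.2 CPM in melanoblasts and 137, 103, 112 and 94.4 CPM in adult cells (log2 fold change 2.33, SE 0.23, adjusted p = 3.75e-08). All of these were highest in adult replicate 1, the library with the highest Schwann cell sum, and L1cam is itself part of that sum. The aged libraries lay lower, at 24.5 and 34 CPM for Chl1 and 7.32 and 5.15 CPM for Cadm2.

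Guidance genes were divided too. Semaphorins act through plexins and neuropilins to steer migrating neural crest cells. Of 31 such genes 12 fell and 8 rose, 7 and 8 under both scalings. Sema6a, a membrane semaphorin, had 420.3, 439.5 and 375 CPM in melanoblasts and 44.6, 86.4, 56.1 and 70.6 CPM in adult cells (log2 fold change -2.67, SE 0.24, adjusted p = 8.39e-09). The receptors Plxna1, with 151 to 192 CPM against 33.9 to 62.8 CPM (-1.87), and Plxna4 (-1.78) fell too. Sema3e, a secreted member, rose from 2.51 to 4.98 CPM to 29.9 to 57.7 CPM (3.37), and Nrp2, a co-receptor, from 12.9 to 32.2 CPM to 50.5 to 84.8 CPM (1.44), both highest in adult replicate 3. Robo1, the receptor for Slit proteins, had 110.3, 102 and 69.3 CPM in melanoblasts and 13.2, 18.7, 12.1 and 20.5 CPM in adult cells (log2 fold change -2.54, SE 0.25, adjusted p = 3.17e-08), whereas Ntn4, a netrin of basement membranes, rose from 1.15 to 2.43 CPM to 11.6 to 15.5 CPM (3.08). Of 20 ephrins and Eph receptors 7 rose and 2 fell, all 9 under both scalings, against 15.1% and 18.3% of all genes tested. Of the 10 members of at least 10 CPM 4 rose and 2 fell. The falls were the ligand Efna5 (-1.71) and the receptor Ephb2 (-1.70), and the rises included Epha4, with 4.04, 5.99 and 2.66 CPM in melanoblasts and 22, 13.6, 25.4 and 19.4 CPM in adult cells (2.25), Ephb6 (2.25) and Epha2 (1.28). Matrix enzymes were mixed, with 10 falls and 7 rises among 35. Adam12 fell from 29.9 to 59.3 CPM to 4.49 to 6.81 CPM (-2.88). Plat, the tissue plasminogen activator, rose from 46 to 80.4 CPM to 163 to 298 CPM (1.85), as did Timp3, an inhibitor of metalloproteases (1.01).

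**Figure D4:**
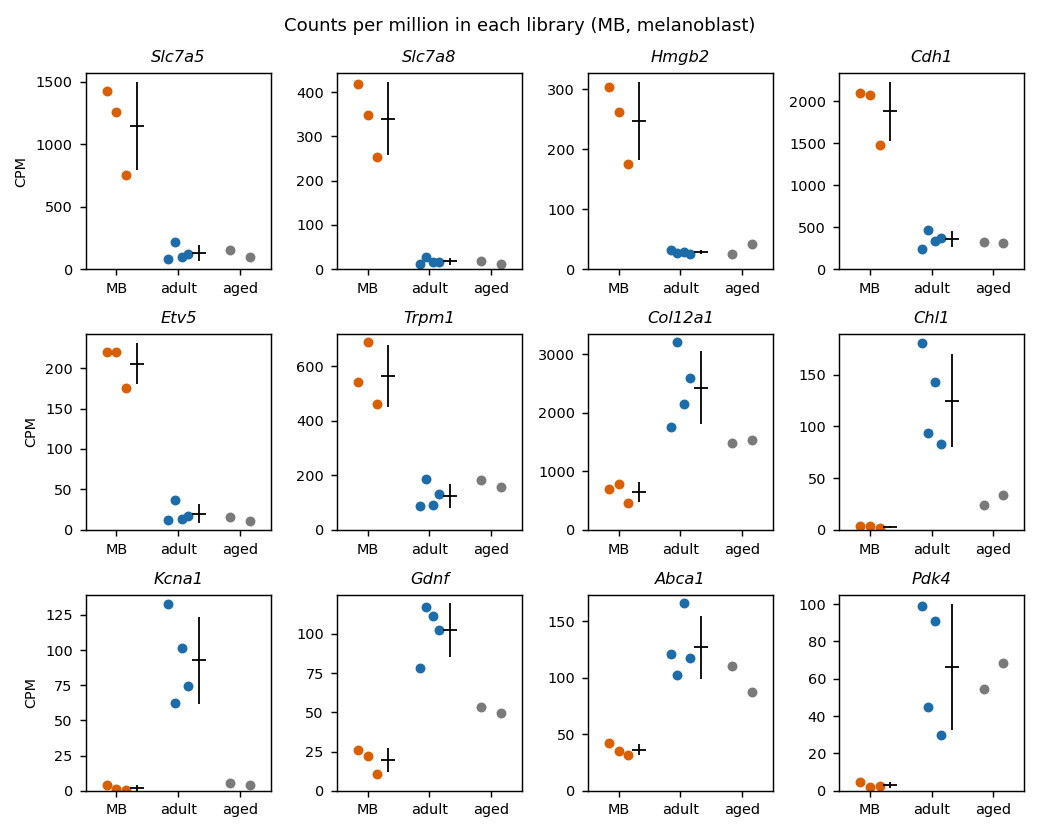
CPM in each library for 12 genes (orange, melanoblast; blue, adult McSC; grey, aged McSC), with the mean and SD of the melanoblast and adult groups as a bar beside the points; each axis starts at 0. For each of the 12 genes the 3 melanoblast and 4 adult libraries did not overlap.

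Ion channels and receptors of excitable cells rose more often than all genes tested. Of 33 sodium and calcium channels 17 rose and 2 fell, of 33 potassium channels 12 rose and 2 fell, and of 39 neurotransmitter and purine receptors 12 rose and 2 fell, against 15.1% of all genes tested that rose. Many of these genes were rare: only 7, 8 and 8 members averaged at least 10 CPM. The lists rose in 51.5%, 36.4% and 30.8% of members, at medians of 1.09, 0.86 and 0.91. Of the 1048 olfactory and vomeronasal receptor genes tested 288 rose, at a higher median of 1.71. The part of that rare-transcript background in these counts was not tested. Scn7a, a salt-sensing sodium channel gene that glia express, had 4.48, 1.25 and 1.1 CPM in melanoblasts and 362, 182, 264 and 138 CPM in adult cells (log2 fold change 6.72, SE 0.50, adjusted p = 1.16e-08). Kcna1 (chr6:126640397-126646384), a voltage-gated potassium channel, had 3.98, 1.56 and 0.201 CPM in melanoblasts and 133, 62.4, 101 and 74.2 CPM in adult cells (log2 fold change 5.63, SE 0.64, adjusted p = 2.21e-05), and Kcna6 went from 0.803 to 3.67 CPM to 12 to 26.9 CPM (3.22). The 3 genes were highest in adult replicate 1, and aged libraries lay well below the adult ones, at 11.4 and 14.1 CPM for Scn7a, 5.82 and 4.17 CPM for Kcna1 and 2.06 and 0.984 CPM for Kcna6. Another set of rises had its highest value elsewhere and was as high in aged cells. Gria4, a glutamate receptor subunit, had 9.34, 7.51 and 12.3 CPM in melanoblasts and 38.3, 60, 38.7 and 45.4 CPM in adult cells (log2 fold change 2.23, SE 0.25, adjusted p = 3.10e-07), highest in replicate 2, with 45.4 and 49.3 CPM in aged libraries. The adrenaline receptor Adra1a, with 1.93, 1.62 and 1.96 CPM in melanoblasts and 10.3, 12.1, 17.6 and 12.4 CPM in adult cells (log2 fold change 2.83, SE 0.32, adjusted p = 2.29e-07), rose as well. Sympathetic nerves reach the follicle's stem cell region and act through adrenaline receptors. Cacna1c rose modestly (1.15). Piezo2, a touch channel, rose too (1.61) but was highest in replicate 1. It had 8.083 to 16.6 CPM in adult cells and 9.825 and 10.3 CPM in aged libraries.

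The falls among channels were few. Trpm1, a channel gene under the control of the melanocyte factor MITF, had 541, 687 and 462 CPM in melanoblasts and 88.2, 186, 92.3 and 131 CPM in adult cells (log2 fold change -2.18, SE 0.26, adjusted p = 5.09e-07). Car6, a secreted carbonic anhydrase, was among the 15 largest falls on the log2 scale, with 40.3, 52.1 and 48.9 CPM in melanoblasts and 2.18, 1.16, 1.11 and 1.75 CPM in adult cells (-4.92). Melanocytes use the messenger cAMP downstream of the melanocortin receptor. The genes of its synthesis and breakdown lay close to other expressed genes as a list, at a relative median of -0.02. Of these 33 genes 17 (51.5%) fell and 8 (24.2%) rose, 8 and 8 under both scalings. Of the 22 members of at least 10 CPM, 15 fell and 4 rose. Of all genes of at least 10 CPM, 57% fell and 9.32% rose. Adcy7 had 122, 119 and 124 CPM in melanoblasts and 25.1, 35.1, 18.6 and 28.1 CPM in adult cells (-2.19), and the phosphodiesterases Pde3a (-1.98) and Pde5a (-1.80) fell. Adcy1, a cyclase stimulated by calcium, rose from 1.46 to 4.23 CPM to 14.2 to 20.2 CPM (2.49), and Pde1b, a phosphodiesterase stimulated by calcium, from 2.71 to 3.73 CPM to 13.2 to 22.6 CPM (2.72).

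Ligand genes rose more often than all genes tested. Of 46 ligand genes 20 (43.5%) rose and 5 fell, 20 and 4 under both scalings, against 15.1% of all genes tested that rose. Only 14 of them averaged at least 10 CPM, with 7 higher and 3 lower. Rare transcripts leaned to adult libraries in general, and the part of that lean here was not tested. Gdnf, a neurotrophic factor, had 25.8, 21.8 and 10.8 CPM in melanoblasts and 78.4, 117, 112 and 102 CPM in adult cells (log2 fold change 2.40, SE 0.27, adjusted p = 3.27e-07). Il33, an alarm cytokine that is also made by keratinocytes and endothelium, had 0.809, 0.261 and 0.903 CPM in melanoblasts and 31.4, 17.5, 27 and 13 CPM in adult cells (log2 fold change 5.08, SE 0.41, adjusted p = 1.49e-09), highest in replicate 1. Hbegf, a ligand of the EGF receptor, rose from 1.56 to 4.79 CPM to 15.5 to 40.2 CPM (3.08). Igf2, described above, Vegfc, from 44.8 to 71.8 CPM to 4.79 to 10.3 CPM (-3.00), and Vegfb (-1.43) fell, the last not past the threshold on library totals. Downstream of receptor kinases, the ETS factors Etv5 and Etv1, which follow KIT and FGF signalling through MAPK, were much lower. Etv5 (chr16:22381309-22439719) had 220.4, 219.7 and 176 CPM in melanoblasts and 12.2, 37, 14 and 16.6 CPM in adult cells (log2 fold change -3.36, SE 0.31, adjusted p = 1.76e-08). Etv1 had 139.6, 112 and 101 CPM in melanoblasts and 15.9, 25.9, 13.6 and 18.5 CPM in adult cells (log2 fold change -2.67, SE 0.24, adjusted p = 6.48e-09). Both groups were apart for each. Adult replicate 2 had the highest adult value of both, as it had for many other falls, such as Slc7a5, Cdh1, Cfl1 and Eif3b. Fgfr1 rose from 36 to 39.8 CPM to 54.8 to 74.2 CPM (0.76), and of 15 FGF receptors and feedback genes 5 fell and 4 rose. In the Hedgehog list 4 of 15 fell and 4 rose, with Gli3, a transcription factor of that pathway, at 249, 219 and 214 CPM in melanoblasts and 65.5, 98.2, 61.2 and 70.9 CPM in adult cells (-1.62).

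Some genes of lipid export and of fuel use were higher. Of 30 genes of lipid uptake, storage and efflux 8 rose and 6 fell. The relative median was 0.97 over the 18 members of at least 10 CPM, of which 4 rose and 5 fell. Over all 30 members the median was 0.41, close to the 0.39 of all genes tested. Abca1, which exports cholesterol, had 42, 35 and 32 CPM in melanoblasts and 121, 102, 166 and 118 CPM in adult cells (log2 fold change 1.80, SE 0.23, adjusted p = 2.27e-06). The carriers it loads rose too: Apoe went from 58.3 to 107 CPM to 173 to 314 CPM (1.33) and Apoc1 from 0.573 to 0.809 CPM to 14.8 to 35.9 CPM (5.16). All of these were highest in adult replicate 3, the library with the highest keratinocyte sum. Cd36, a fatty acid importer (-2.63), and Fabp7, a fatty acid binding protein of the neural crest lineage, with 25.8 to 58.1 CPM against 9.7 to 14.9 CPM (-1.81), fell. Fatty acid oxidation was not raised as a list: 17 of 24 genes fell and 2 rose, with Acadl at -1.47, and its median lay -0.09 from all genes of at least 10 CPM. Pdk4, a kinase that inhibits pyruvate dehydrogenase, had 4.73, 1.88 and 2.81 CPM in melanoblasts and 98.8, 45, 90.8 and 30.1 CPM in adult cells (log2 fold change 4.41, SE 0.42, adjusted p = 1.49e-07).

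Nuclear receptors for vitamins, lipids and steroids supplied several rises. Of 27 tested 8 rose and 5 fell, 8 and 0 under both scalings, against 15.1% and 18.3% of all genes tested that rose and fell. Of the 15 members of at least 10 CPM 4 rose and 5 fell. Vdr, the vitamin D receptor, had 6.6, 3.7 and 5.02 CPM in melanoblasts and 64.1, 48.6, 98 and 86.3 CPM in adult cells (log2 fold change 3.87, SE 0.30, adjusted p = 6.35e-10), highest in replicate 3. Pparg, the lipid-sensing receptor, had 3.05, 3.18 and 0.753 CPM in melanoblasts and 23.9, 26.1, 20.6 and 22.9 CPM in adult cells (log2 fold change 3.33, SE 0.35, adjusted p = 1.11e-07). Nr3c2, the mineralocorticoid receptor, had 5.48, 4.07 and 6.42 CPM in melanoblasts and 21.4, 40.1, 23.4 and 27.3 CPM in adult cells (log2 fold change 2.40, SE 0.28, adjusted p = 4.37e-07), highest in replicate 2. The glucocorticoid receptor Nr3c1 had 107, 122 and 83 CPM in melanoblasts and 118, 170.2, 143 and 136 CPM in adult cells and did not pass the threshold (0.44, adjusted p = 0.116). Of 19 genes known to answer glucocorticoids 12 (63.2%) rose and none fell, against 15.1% of all genes tested that rose. The list's relative median was 2.35 over its 13 members of at least 10 CPM. Early response and heat shock genes, known to respond to cell stress, rose in the same libraries. Fos had 198, 223 and 133 CPM in melanoblasts and 1301, 925, 1090 and 858 CPM in adult cells (5.64-fold by the fit), and Atf3 rose 13.8-fold. Hspa1a and Hspa1b, near-identical heat shock genes among which reads may be split, went from 2.66 to 5.1 and 1.46 to 4.92 CPM to 103 to 327 and 85.3 to 292 CPM. Their part in the rise of this list was not tested. Sgk1, a kinase, had 24.3, 27.7 and 10.3 CPM in melanoblasts and 106, 97.7, 80.2 and 66.6 CPM in adult cells (log2 fold change 2.08, SE 0.29, adjusted p = 5.21e-06), and Klf9 had 39.3, 32.7 and 25.8 CPM in melanoblasts and 104, 118, 98 and 103 CPM in adult cells (log2 fold change 1.70, SE 0.22, adjusted p = 3.01e-06). Some of the best known members did not share the rise. Fkbp5, at 8.53 to 13.8 CPM in melanoblasts and 8.25 to 16.5 CPM in adult cells (0.10, adjusted p = 0.809), and Tsc22d3, at 30.6 to 34.6 CPM and 21.2 to 29.1 CPM (-0.39, adjusted p = 0.167), did not pass the threshold.

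Detoxification and retinoid enzymes rose in number, with 16 of 33 higher and 3 lower, 16 and 2 under both scalings, against 15.1% of all genes tested that rose. Only 15 of the 33 averaged at least 10 CPM, with 7 higher and 2 lower. Adh7, an alcohol dehydrogenase that oxidises retinol and is known in epithelia, had 0.56, 0.834 and 0.402 CPM in melanoblasts and 27.8, 14.1, 26.8 and 18 CPM in adult cells (log2 fold change 5.17, SE 0.37, adjusted p = 1.51e-10). Ephx2, an epoxide hydrolase, rose from 2.61 to 4.37 CPM to 14.4 to 22.3 CPM (2.35). Akr1c18, a steroid dehydrogenase, showed the largest rise of any gene the naming rule took, with 0.747, 0.521 and 0.201 CPM in melanoblasts and 70.7, 26.8, 126 and 27.4 CPM in adult cells (log2 fold change 7.02, SE 0.68, adjusted p = 2.15e-06), and its adult libraries differed from each other several-fold. Iron and copper genes were divided, with 6 of 25 higher and 6 lower. Steap4, a metal reductase, rose from 1.05 to 2.97 CPM to 22.3 to 52.5 CPM (4.37), and Ireb2, the iron sensor, fell from 144 to 226 CPM to 29.8 to 55.5 CPM (-2.07), as did the copper importer Slc31a1 (-1.78).

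Complement genes and S100 proteins, the small calcium-binding proteins that mark neural crest cells and epidermis, rose in part. Of 24 complement genes and regulators 8 rose and 3 fell, against 15.1% and 18.3% of all genes tested. All 8 rises and none of the falls were called under both scalings. Only 6 of the 24 averaged at least 10 CPM, 4 of them higher and 2 lower. C4b (chr17:34728380-34743882), a component of the classical pathway, had 5.54, 4.43 and 6.98 CPM in melanoblasts and 182, 296, 232 and 225 CPM in adult cells (log2 fold change 5.37, SE 0.30, adjusted p = 2.82e-12), highest in adult replicate 2. C3 had 3.24, 3.75 and 5.77 CPM in melanoblasts and 27, 16.9, 18.4 and 14.2 CPM in adult cells (2.16), and Serping1, the inhibitor of the first complement step, rose from 2.41 to 3.65 CPM to 17.4 to 35.4 CPM (3.06). Cd59a, which blocks the last step on the cell's own surface, rose from 11.5 to 31.4 CPM to 47.2 to 71.5 CPM (1.34, and 0.63, not past the threshold, with length and GC offsets), while C2 went from 23.1 to 42.2 CPM to 10.7 to 18.4 CPM (-1.29). Of 14 S100 genes 10 rose and none fell, all 10 under both scalings, against 15.1% of all genes tested that rose. Only 4 of the 14 averaged at least 10 CPM, 2 of them higher and none lower. S100a6 had 2.92, 3.49 and 3.16 CPM in melanoblasts and 39.9, 34.6, 64.9 and 61.9 CPM in adult cells (log2 fold change 3.97, SE 0.30, adjusted p = 4.44e-10), highest in replicate 3. S100b, a marker of glia and of the melanocyte lineage, had 2.99, 2.71 and 2.61 CPM in melanoblasts and 14.7, 13.5, 14 and 15.9 CPM in adult cells (log2 fold change 2.39, SE 0.26, adjusted p = 2.12e-07), with little spread within either group.

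Brakes on growth were not raised as a group. Of 24 genes that restrain mTORC1 or sense nutrients 10 fell and 1 rose, 3 and 1 under both scalings, and the list's median was 0.07 from all genes of at least 10 CPM. The rise was Prkaa2, a catalytic subunit of the energy sensor AMPK, with 7.53, 9.8 and 3.56 CPM in melanoblasts and 19.6, 33.7, 24.9 and 25.1 CPM in adult cells (log2 fold change 1.89, SE 0.30, adjusted p = 2.81e-05). Eif4ebp2, which blocks cap-dependent translation (-2.06), Inpp4b, a phosphoinositide phosphatase (-2.02), and Sesn3 (-1.68) fell. The circadian clock list had 5 rises and 6 falls among 19. Arntl, the activating arm of the clock, had 10.6, 12 and 16.7 CPM in melanoblasts and 31, 31.6, 29.1 and 30.2 CPM in adult cells (2.33-fold by the fit), and Nfil3, a repressor of D-box genes, rose from 6.67 to 11.1 CPM to 31.2 to 48.4 CPM (2.04). Hlf, an activator at D-boxes that is known from blood stem cells, had 97.7, 88.6 and 73.3 CPM in melanoblasts and 9.12, 14.2, 10.7 and 9.87 CPM in adult cells (log2 fold change -2.98, SE 0.23, adjusted p = 4.49e-10). Per2 (-1.21) and Per3 (-0.98), repressors of the clock, fell under TMM and did not pass the threshold with abundant-gene factors. The hour at which animals were sampled is not given in the sources used here, so its part was not tested. The E-box CACGTG, the clock's own site, stood in a promoter of 5 of 16 clock genes (31.2%) and of 12.4% of genes of at least 10 CPM. Counted per single promoter, it stood in 7.15% of all promoters.

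By amount of RNA rather than fold, the largest gain outside the early response and MHC genes was Col12a1 (chr9:79598991-79718831), a collagen that decorates collagen fibrils, with 702, 788 and 461 CPM in melanoblasts and 1756, 3209, 2151 and 2591 CPM in adult cells (3.73-fold by the fit, adjusted p = 6.61e-06). Enpp2 (autotaxin), which makes lysophosphatidic acid, had 261, 302 and 166 CPM in melanoblasts and 839, 1215, 985 and 1158 CPM in adult cells (log2 fold change 2.11, SE 0.25, adjusted p = 7.99e-07), and Zbtb20, a transcription repressor, had 297, 274 and 261 CPM in melanoblasts and 988, 1161, 929.6 and 979 CPM in adult cells (log2 fold change 1.87, SE 0.23, adjusted p = 8.41e-07). The 3 genes were highest in adult replicate 2, the library with the highest lineage sum, and the aged libraries held 1483 and 1540 CPM of Col12a1 and 813 and 854 CPM of Enpp2. The largest losses outside pigment and cell cycle genes were, beside Npm1 and Eef1a1, Vim, the intermediate filament of mesenchymal and neural crest cells, with 4073, 4381 and 2494 CPM in melanoblasts and 1223, 1272, 1170 and 1205 CPM in adult cells (-1.58), and Nedd4, a ubiquitin ligase, with 3484, 3300 and 2021 CPM in melanoblasts and 702, 1232, 834 and 933 CPM in adult cells (-1.67). Lars2, a mitochondrial synthetase gene, had 12115, 8308 and 4955 CPM in melanoblasts and 719, 3893, 2020 and 2428 CPM in adult cells; its values are uncertain, since reads of mitochondrial rRNA, which took 21.9% to 37.6% of counts in these libraries, can map to similar sequence in it.

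Other rises of the largest size fell into sets by library. Fgl2, a secreted immune regulator, had 6.29, 11.4 and 1.56 CPM in melanoblasts and 584, 362, 453 and 244 CPM in adult cells (log2 fold change 6.00, SE 0.55, adjusted p = 6.44e-07), and Fcgr2b, an antibody receptor, had 0.56, 1.09 and 3.71 CPM in melanoblasts and 141, 89.9, 116 and 77.1 CPM in adult cells (log2 fold change 5.86, SE 0.47, adjusted p = 1.37e-08). Both were highest in adult replicate 1, and the aged libraries held 44.4 and 37.2 CPM of Fgl2 and 7.72 and 6.31 CPM of Fcgr2b. Aspa, which breaks down N-acetylaspartate in glia, rose from 0.261 to 1.93 CPM to 34.5 to 56.3 CPM (5.22), also highest in replicate 1. Anxa8 (5.57), the epidermal transglutaminase Tgm5 (5.47) and Clca3a2 (5.43) were highest in replicate 3. Gucy2f, a guanylate cyclase known from photoreceptors, had 3.73, 2.87 and 5.77 CPM in melanoblasts and 151, 212, 151 and 193 CPM in adult cells (log2 fold change 5.42, SE 0.32, adjusted p = 7.12e-12), highest in replicate 2 and at 176 and 300.4 CPM in aged cells.

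**Figure D5:**
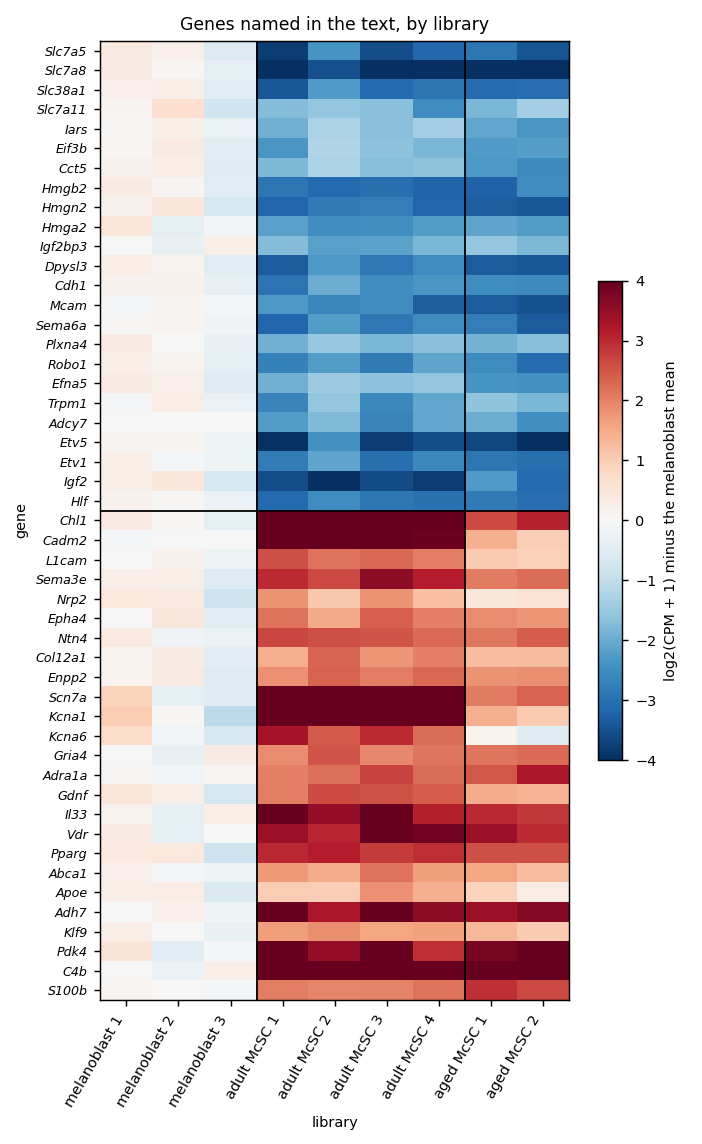
Log2(CPM + 1) minus the melanoblast mean for genes named in the text, in the 3 melanoblast, 4 adult and 2 aged libraries, with genes lower in adult cells above the line and genes higher in adult cells below it; colours stop at 4 in either direction. Falls were shared by the 6 stem cell libraries, while Chl1, Cadm2, Scn7a, Kcna1 and Kcna6 were high in adult and lower in aged libraries.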

How the data were processed

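The 9 libraries are RNA-seq of dermal cells that carried KIT and lacked CD45, with groups and replicate numbers taken from the titles. Per the labels' protocols, cDNA was amplified from 20 ng of RNA with the Ovation RNA-Seq System V2 and made into libraries with the TruSeq kit and 10 PCR cycles, so reads do not stand for molecules. The tools that the submitters' processing notes name are STAR 2.5.2 and SAMtools 1.9, with Trimmomatic 0.36 and FastQC 0.11.8, DESeq2 1.22.2 and, as the build, mm10. How reads were assigned to genes (program, annotation, strand) is not given in the sources used here, and overlapping genes and near-identical copies may share reads. The deposited values are raw counts for 49671 Ensembl genes, of which 49412 matched GENCODE M21 for symbols and coordinates. Library totals ran from 12594770 to 33710117.

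edgeR 4.0.16 (R 4.3.3) with TMM factors and filterByExpr was fitted to all 9 libraries as group means. The robust quasi-likelihood F test of adult McSC minus melanoblast was adjusted by Benjamini-Hochberg over 31961 genes at 0.05. SE is the standard error of a log2 fold change, from F. CPM carry the TMM scaling, with a prior count of 2 for log2 values. The scripts were tested on simulated data. No 2 libraries of a group looked like the same library, with a chi-square per degree of freedom of 17.5 to 75.1, and each counted as a replicate. The alternatives were limma 3.58.1 with voom and quality weights, DESeq2 1.42.0, other factors and filters, fewer libraries, a replicate block, length and GC offsets, and mitochondrial genes left out.

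The 42 gene lists, 13 marker lists and all members were chosen with earlier results of these data known. Genes were named by rule: the 15 largest rises and falls and the 10 largest CPM gains and losses, up to 3 members of a list in each direction with the smallest p, and the most abundant gene of each marker list. The rule took genes from lists only where the higher group averaged at least 10 CPM, and those named for size at least 30 CPM. Some genes it takes are passed over, and Mbp, Krt5, Lin28b, Slc38a2, Slc1a4, Fkbp5, Tsc22d3, Nr3c1 and other members that did not pass were named to show both sides. Values of a few other genes are not reported here. Promoter letters were searched in the RefSeq table for GRCm38.p6, which holds the same sequence as mm10.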

Additional observations from a re-analysis of the deposited data

Results flagged for a closer look

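In a group of 4 libraries, a value was marked when its gap to the nearest other value took more of the group's range than Dixon's limit allows, which chance does in about 1 in 20 groups. Of 186 genes and marker sums examined in adult McSC, 8 were marked. The highest adult value stood apart for Nup155 at 66.9 CPM, Per3 at 19.97 CPM, Slc31a1 at 57.2 CPM, Gjc1 at 18.5 CPM and Dync2h1 at 74.9 CPM, each time in adult replicate 2, the library with the highest lineage sum. The lowest adult value stood apart for Timp3 at 274.8 CPM in adult replicate 4, for Adam12 at 4.49 CPM in adult replicate 2 and for Pde1b at 13.2 CPM in adult replicate 1. For each of the 8 genes the 4 adult libraries still lay on the same side of all 3 melanoblast libraries.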

How the results depend on the processing

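Library factors decided how many genes counted as lower. Abundant-gene factors gave 10785 genes higher and 1784 lower, and library totals alone gave 11026 and 1486, against 4836 and 5840 under TMM. Of all calls 45.3% were rises under TMM, 85.8% under abundant-gene factors, 88.1% under library totals, 57.7% without a filter and 34.8% with length and GC offsets. limma voom gave 7550 higher. The stricter filter, 5 CPM or more in 3 or more libraries, tested fewer genes and left 6494 calls, 3120 of them lower. Leaving out melanoblast replicate 3 raised the number higher to 7400, and leaving it out together with adult replicate 2 gave 8071. Leaving out each library in turn gave 8056 to 14059 calls, 3526 to 7400 higher and 4396 to 6659 lower. DESeq2 gave 6102 higher and 5954 lower. The cause of these shifts was not tested.

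The fit with the replicate block gave 9035 calls, 3965 higher and 5070 lower. Deviations of same-numbered libraries correlated at -0.08, 0.20 and -0.04, so the numbers did not pair the samples.

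The relative median kept its sign in all 19 alternatives for 36 of 42 lists; the tubulin list kept it in 8, and the cAMP, Hedgehog, polyamine, mTORC1 and mRNA decay lists changed it in 1 or 2. Of 164 called genes named in the text, 152 kept the call in every alternative that tested them. Aars was 0.14 with abundant-gene factors and 0.17 with library totals, and Yars 0.19 and 0.23. Within genes of at least 10 CPM the median log2 fold change ran from -0.91 in the shortest to -0.58 in the longest of 5 length classes. Depth limits rare transcripts: 3 counts, the most a count of 0 allows, are 0.089 to 0.15 CPM of the unscaled totals in the 7 libraries.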

Other observations

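Cell junction genes differed by family. Connexins form channels between neighbouring cells, and claudins seal the space between them. Of 30 gap and tight junction genes 11 rose and 5 fell, 11 and 2 under both scalings, against 15.1% and 18.3% of all genes tested that rose and fell. Of the 11 members of at least 10 CPM 3 rose and 5 fell. Gjc3, a connexin of glia and melanocytes, had 397, 379 and 306 CPM in melanoblasts and 71.4, 87.6, 77.1 and 101 CPM in adult cells (log2 fold change -2.10, SE 0.24, adjusted p = 3.29e-07), and Gjc1 fell from 29.7 to 42.1 CPM to 9.7 to 18.5 CPM (-1.59). Cldn1, a claudin of epidermis, had 14.1, 8.91 and 5.22 CPM in melanoblasts and 81.4, 44.5, 81.5 and 68.4 CPM in adult cells (log2 fold change 2.88, SE 0.31, adjusted p = 1.33e-07). The keratinocyte marker sum rose in the same libraries, and its part in the rise of Cldn1 was not tested.

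The primary cilium, the antenna through which cells read Hedgehog signals, was near other expressed genes as a list, at 0.20 relative to all genes of at least 10 CPM. Of 29 genes 11 fell and 4 rose, 4 and 4 under both scalings. Motors led the falls, with the retrograde motor Dync2h1 going from 144 to 182 CPM to 58.3 to 74.9 CPM (-1.41) and the anterograde motor subunit Kif3a from 143 to 182 CPM to 53.1 to 80.1 CPM (-1.39). Ift80, a subunit of the transport train, rose from 21.7 to 28 CPM to 42.6 to 60.2 CPM (0.97).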
